A study of Mus musculus with 3 samples.

Results

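The Fat and Dachsous cadherins are the giant atypical cadherins of vertebrates, and Fjx1 is the mouse relative of four-jointed, the kinase that acts on them. The group was taken as the 7 genes Fat1, Fat2, Fat3, Fat4, Dchs1, Dchs2 and Fjx1. Its members were all probe sets (the sets of short probes that each report 1 transcript on the array) whose platform annotation gave a single one of these symbols. The rule found 9 probe sets for 6 of the 7 genes, out of 34945 probe sets with a single symbol that covered 18193 genes. Fat4 had 2 probe sets, Fjx1 had 3, and Fat1, Fat2, Fat3 and Dchs1 had 1 each. Dchs2 had no probe set under this rule and was not analysed here.

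Fat and Dachsous proteins span the membrane once and carry long rows of cadherin repeats, through which a Fat protein on a cell binds a Dachsous protein on its neighbour. In flies this pair orients cells within a tissue (planar cell polarity) and restrains growth through the Hippo kinases, and four-jointed phosphorylates cadherin repeats in the Golgi and so tunes the binding. In the mammalian kidney Fat4 and Dchs1 are the best studied pair: mice that lack either have small cystic kidneys with an enlarged pool of nephron progenitors, and stromal Fat4 has been placed upstream of that pool.

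The cells came from fetal kidneys of CD-1 mice carrying the reporter Tg(Meis1-EGFP)FO156Gsat, taken at E15.5 (Theiler stage 23), sex unknown. Kidneys were pooled in lots of about 20, dissociated with trypsin for 5 min, and the cells positive for green fluorescent protein were collected by sorting. The series title calls these cells peripheral blastema and the sample source calls them nephrogenic interstitium. The 3 arrays are replicates of 1 group, 1 pool per array, so there was no other genotype, treatment or stage and no reporter-negative fraction to compare with. The reporter follows the control elements of Meis1 in a single transgenic line, so the sort holds whatever cells were green in that line.

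With 1 group, the comparison was of each gene with background. Signals are scaled array values with no physical unit. Each array's own background level was set at the 95th percentile of 72 odorant, vomeronasal and trace amine receptor genes, which are made in sensory neurons, and it lay at signals of 135, 185 and 168 in replicates 1, 2 and 3. Distances below are log2 signal minus that level, so 1 unit is a doubling over background. Their SEs are moderated by limma, which draws the variance of each gene toward that of all genes. An SE can thus be wider or narrower than the 3 values alone would give. The log2 signals of genes correlated at Pearson's r of 0.968 to 0.969 between arrays (across genes, which are not independent replicates). All 9 stroma markers lay above background, beside 57.3% of all genes. They included Foxd1 (7.47 ± 0.21 log2 units, SE, n = 3) and Meis1 itself (6.84 ± 0.21), which the sort favours. Of the 9 calls, 3 rested on some but not all probe sets of the gene.

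Of the 6 measured genes, 5 lay above background and 1 did not. Over all 18193 genes 57.3% were above background by the same test (limma, one-sided, Benjamini-Hochberg adjusted p below 0.05), and no test was made of a count of 6. By the brightest probe set of each gene, the members fell into 3 ranges. Fat1 and Fat4 lay more than 7 log2 units above background, Fat3, Fjx1 and Dchs1 between 1 and 3 units, and Fat2 below it. Of 48 measured genes restricted to other tissues, 3 were also called at the gene level. The highest, Lor, lay at 1.89 ± 0.20, in the range of Fat3, Fjx1 and Dchs1, on 2 of 3 probe sets. When each probe set was tested alone, 6 of the 9 were above background, against 48.7% of all probe sets with a single symbol. Other sets of the same genes fell outside these ranges, the second Fat4 set at 5.91 and the other Fjx1 sets at -2.02 and -3.34. Probe sets differ in affinity, so the ranges describe signals, and the genes were not ranked by transcript level within or between them. In a bulk sort, fewer cells making a transcript and less of it per cell cannot be told apart.

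**Figure D1:**
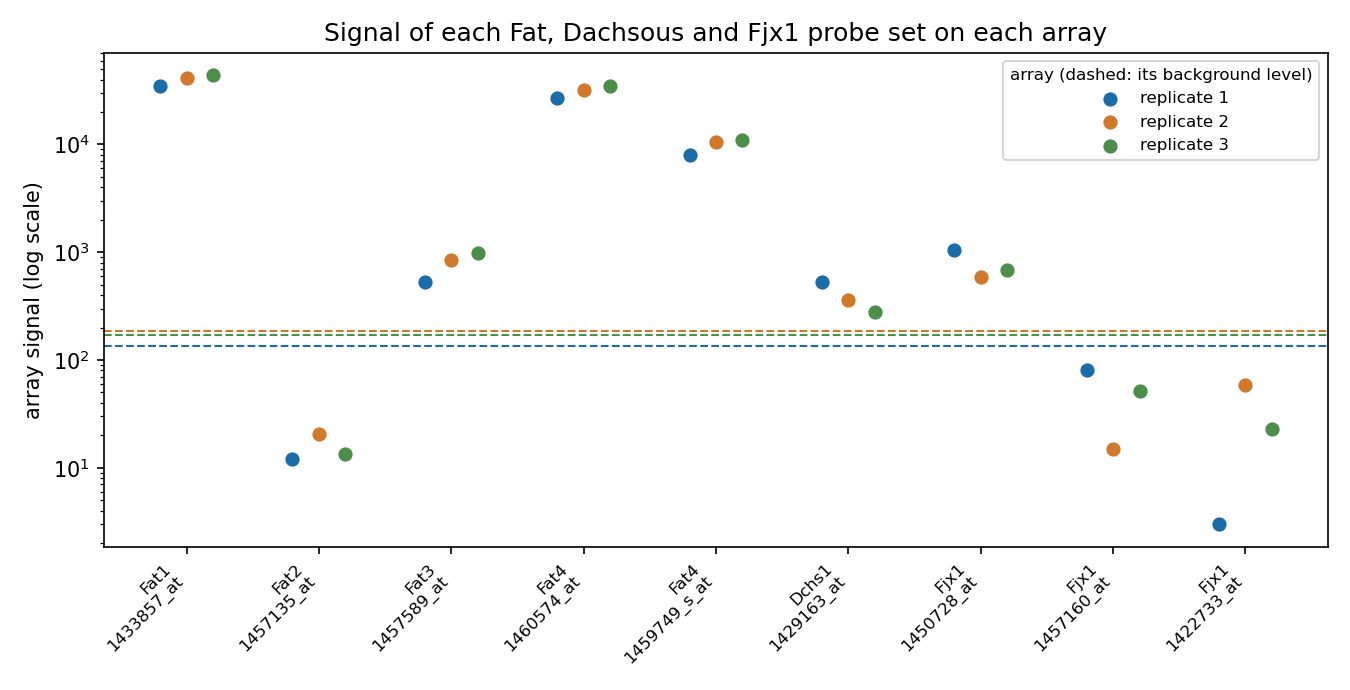
Signal (log axis) of the 9 probe sets of the Fat, Dachsous and Fjx1 genes on each of the 3 arrays, 1 point per array, with the background level of each array as a dashed line of the same colour. The Fat1 point and both Fat4 probe sets sit far above the lines on every array, Fat3, Dchs1 and 1 probe set of Fjx1 sit just above them, and Fat2 and the other 2 Fjx1 probe sets sit below them.

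Fat4, the Fat cadherin that pairs with Dchs1, was well above background through both of its probe sets. The brighter, 1460574_at, had signals of 26984, 31865 and 34959 in replicates 1, 2 and 3, with a mean of 31269 ± 4021 (SD, n = 3). Replicate 1 had the lowest signal and no array came near its background level. The gene's distance from background was 7.59 ± 0.20 log2 units (SE, n = 3), or 193-fold, with a limma adjusted p of 7.78e-07. The second probe set, 1459749_s_at, carries the suffix of a set that can match more than 1 transcript. It had signals of 7894, 10612 and 10954 and lay 5.91 ± 0.21 units above background (60.2-fold; limma adjusted p = 5.25e-06 over probe sets). In both sets signal was lowest in replicate 1 and highest in replicate 3. Distance from background was lowest in replicate 2 in both (7.43 and 5.84). None of the 72 receptor genes exceeded either set on any array.

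Fat1, a Fat cadherin that binds the actin regulators of the Ena/VASP family and is also a protein of the podocyte slit diaphragm, was also far above background. Its only probe set, 1433857_at, had signals of 35177, 41218 and 43653, with a mean of 40016 ± 4364 (SD, n = 3). These values varied little, the highest being 1.24 times the lowest. Its distance was 7.95 ± 0.20 log2 units (SE, n = 3), or 247-fold over background, with a limma adjusted p of 7.78e-07 and distances of 8.03, 7.80 and 8.02 on the 3 arrays. Since Fat1 is also made by podocytes, the podocyte list was read beside it: 2 of 4 measured markers were above background, the summed signal of the 4 ran from 1413 to 1521 over the arrays, and over all genes 57.3% were called. Podxl, a sialomucin of podocytes (1.88 ± 0.22), and the actin-associated Synpo (2.14 ± 0.21) were above background and gave most of that sum. Each was called on 1 of its 2 probe sets. The slit diaphragm gene Nphs1 (-1.66 ± 0.28) and the phosphatase Ptpro (-0.56 ± 0.30) were not above it. The part of podocytes in the Fat1 signal was not tested.

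Fat3, known for shaping the dendrites of retinal amacrine neurons, was also above background. Probe set 1457589_at had signals of 526, 841 and 987, with a mean of 785 ± 236 (SD, n = 3). The mean distance was 2.23 ± 0.22 log2 units (SE, n = 3), or 4.70-fold, with a limma adjusted p of 7.29e-05. Its 3 distances were 1.96, 2.19 and 2.55, all above the highest receptor gene of the same array. Neural cells are another possible source of this transcript. Of 5 measured neural markers, 3 were above background, beside 57.3% of all genes, with a summed signal of 1657 to 1949 over the arrays. Dbh lay at 2.47 ± 0.24, Elavl4 at 1.57 ± 0.25 and Stmn2 at 0.80 ± 0.22, while Sox10 (-0.20 ± 0.21) and the neuronal tubulin Tubb3 (-3.90 ± 0.29) were not above background. Dbh was called on 1 of 3 probe sets, Elavl4 on 2 of 3 and Stmn2 on 1 of 2. The part of neural cells in the Fat3 signal was not tested.

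Fat2, a Fat cadherin of cerebellar granule cells and of migrating epithelia, was the measured member not above background. Probe set 1457135_at had signals of 12, 20.4 and 13.5, all under the background levels of 135 to 185. Of the 72 receptor genes, 54, 51 and 60 had a higher signal than Fat2 on replicates 1, 2 and 3. Its distance was -3.44 ± 0.21 log2 units (SE, n = 3; limma adjusted p = 1). A probe set can fail, so this does not show that the transcript was absent.

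Dchs1, the Dachsous cadherin that pairs with Fat4, was above background by a small margin. Probe set 1429163_at had signals of 527, 360 and 280, with a mean of 389 ± 126 (SD, n = 3). Replicate 1 was the highest and replicate 3 the lowest, at 1.97 and 0.73 log2 units above background, with replicate 2 at 0.96. On replicate 3 there was 1 receptor gene with a higher signal. The mean distance was 1.22 ± 0.30 log2 units (SE, n = 3), or 2.33-fold, with a limma adjusted p of 0.00607, and it was 0.85 without replicate 1 (limma adjusted p = 0.0151). With the level at the 99th percentile of the receptor genes, the distance was 0.73, with a limma adjusted p of 0.0429 over genes and 0.0801 over probe sets, where the call was lost.

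Nephron progenitors of the cap mesenchyme also make Dchs1, so their markers stand beside it. Of 8 such markers 6 were above background, beside 57.3% of all genes, with a summed signal of 20293 to 24914 over the arrays. Sall1 (6.12 ± 0.21 log2 units) and the integrin Itga8 (5.47 ± 0.24) gave most of that sum, and Eya1 lay at 3.47 ± 0.27 and Six2 at 1.86 ± 0.21. Sall1 was called on 1 of 2 probe sets and Eya1 on 1 of 3. Cited1 (-4.20 ± 0.20) and Osr1 (-3.13 ± 0.37) were not above background. How much of the Dchs1 signal came from such cells was not tested.

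Fjx1, the four-jointed kinase, was called above background on 1 of its 3 probe sets, and the others disagreed. Probe set 1450728_at had signals of 1041, 593 and 686, with a mean of 773 ± 236 (SD, n = 3), and it represents the gene as the brightest set. Its distance was 2.22 ± 0.30 log2 units (SE, n = 3), or 4.66-fold, with a limma adjusted p of 0.000333, and its signal was higher than every receptor gene on all 3 arrays. Probe set 1457160_at had signals of 80.3, 15.0 and 51.8 and lay at -2.02 ± 0.56. Probe set 1422733_at had signals of 3.0, 58.4 and 22.9 and lay at -3.34 ± 0.72. These 2 sets were under the background level on every array. The platform annotation gives 1422733_at the same source sequence as 1450728_at, and on each array the first lay below background and the second above it. The mean of log2 signals over the 3 sets lay below background (-0.85), so the call for Fjx1 rests on the choice of the brightest set. Fjx1 is also the compact member of the group, with a genomic span of 2427 bp in RefSeq (GRCm38.p6) against 35367 bp for Dchs1 and 592493 bp for Fat3.

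The members above background differed in how steady they were over the 3 pools. After each array was centred on its median, the SD of log2 signal was 0.18 for Fat1 and 0.21 for the brighter Fat4 set, near the median of 0.16 over all genes above background. It was 0.49 for Fat3, 0.44 for Dchs1 and 0.41 for Fjx1. Among the 2998 genes that lay 1 to 3 log2 units above background, as these 3 do, the median SD was 0.20 and the upper quartile 0.30. On this centred scale Fat3, Dchs1 and Fjx1 therefore varied more than most genes at their distance. As distances from background they ranged over 0.59, 1.23 and 1.27 log2 units across the arrays, a range not taken over all genes. Replicate 1 was their extreme array each time, lowest for Fat3 (a departure of -0.55 from its mean) and highest for Dchs1 (0.47) and Fjx1 (0.45). The median SD over the 6 measured genes was 0.41, and it was 0.16 without replicate 1. On this centred scale Fat1, both Fat4 sets and Fat2 also had their lowest value in replicate 1. As distances from background they did not. Fat1 was then highest in replicate 1 (8.03) and lowest in replicate 2 (7.80). Both Fat4 sets were lowest in replicate 2 (7.43 and 5.84) and Fat2 in replicate 3 (-3.64). With 1 pool per array, a difference between pools and one between arrays cannot be told apart.

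**Figure D2:**
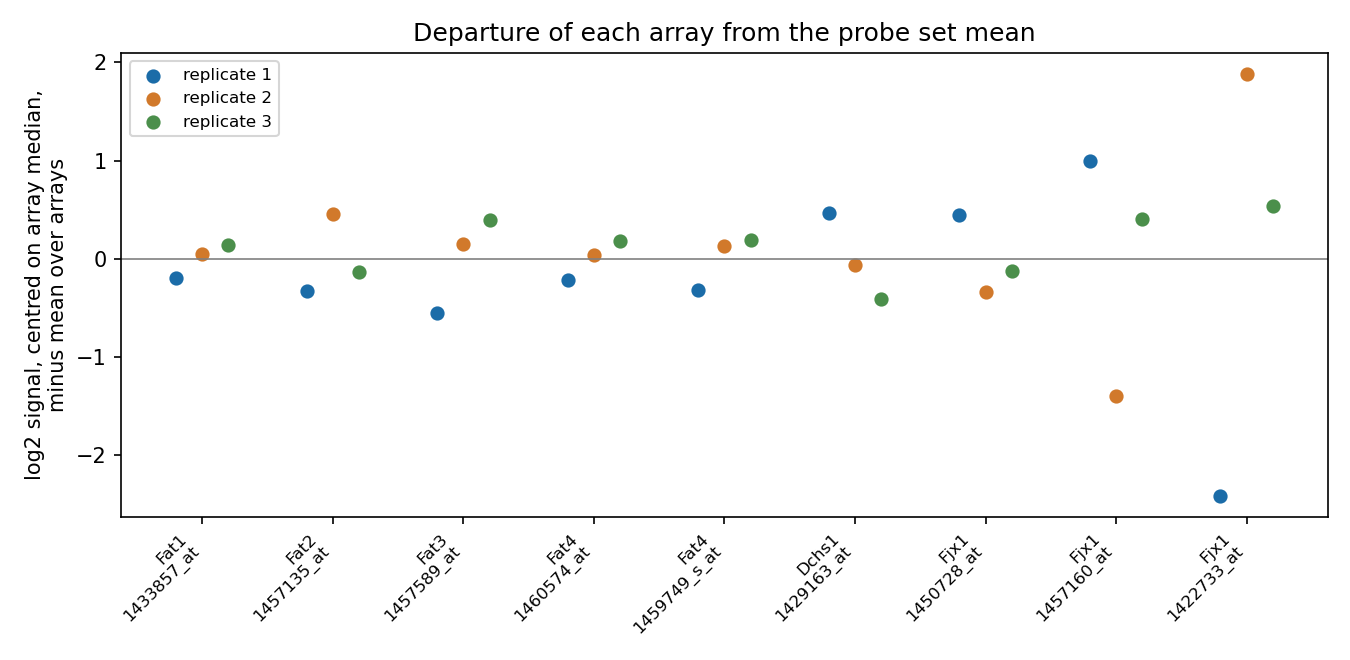
Departure of each array from the mean of its probe set, in log2 units after centring each array on its median, for the 9 probe sets, 1 point per array. Fat1 and Fat4 points lie within 0.32 of 0, Fat3, Dchs1 and the called Fjx1 set reach 0.55, and the 2 Fjx1 sets under background scatter from -2.41 to 1.88.

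RefSeq windows of 300 bases around an annotated transcript start (250 before it and 50 after, GRCm38.p6) were at hand for 5 of the 7 genes, Fat1, Fat2, Fat3, Fat4 and Dchs2. They were read for GGAATG, the core of the site bound by Tead factors, the DNA-binding partners of Yap at the end of the Hippo pathway. On either strand, 14.7% of all 32851 such windows held it, and among the members it occurred in the windows of Fat1 and Fat2. The 30 bases around each match are shown because these genes lay at opposite ends of the signals above, with the match in capitals, 5′ to 3′ on the strand of the gene.
Fat1, chr8:44950094-44950123, plus strand: cagtgtgggtggGGAATGcttgatgcataa
Fat2, chr11:55312425-55312454, minus strand: tctggatctgggGGAATGggaggaggagta
The match began 102 bases before the start in Fat1 and 185 bases before it in Fat2. The starts of the Fat1, Fat2 and Fat4 windows lie 17108, 25248 and 2273 bp inside the span of their genes and those of Fat3 and Dchs2 627 and 583 bp inside it. None is thus at the outermost annotated base, and other starts of these genes were not read. A match of 6 letters is a description of the window and not a binding site. The windows also differed in base composition, with 71.3% G or C and 35 CpG in Fat3, 69.7% and 27 in Dchs2, 55.7% and 13 in Fat4, 43.7% and 4 in Fat2 and 42.7% and 2 in Fat1, beside medians of 52.7% and 7 over all windows.

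Genes that act with Fat and Dachsous were read from 7 lists, in which 53 of 66 measured genes (80.3%) lay above background, beside 57.3% of all genes. No list test was made. Of these 53 calls, 27 rested on some but not all probe sets of the gene, as for Fjx1. With the mean over probe sets 48 of the 66 genes were above background, beside 50.4% of all genes under that choice. Rere, Celsr2, Axl and Gfra1 below were each called on 1 probe set, with their other sets not above background. Median distances of lists describe signals, and since probe affinity differs they give no order of transcript levels. Partners that bind Fat or Dachsous proteins inside the cell were above background in 12 of 14 cases (median distance 4.24 log2 units, beside 1.52 over all genes). They included the atrophin Rere, a relative of the fly Fat partner (6.0 ± 0.25), the lowfat relative Lix1l (4.39 ± 0.24), and the Ena/VASP proteins Enah (7.55 ± 0.21) and Vasp (4.42 ± 0.25), which bind Fat1. The atrophin Atn1 (0.53 ± 0.27) and Lix1 (-3.11 ± 0.24) were not above background.

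Planar polarity genes, which act beside the Fat system in orienting cells, were above background in 13 of 17 cases, with a median distance of 2.53. With the mean over probe sets they were so in 9 of 17, beside 50.4% of all genes under that choice. Vangl1 lay at 2.00 ± 0.30, Vangl2 at 5.09 ± 0.23, the receptor Fzd3 at 5.40 ± 0.22 and the atypical cadherin Celsr2 at 1.37 ± 0.20. Its relatives Celsr1 (0.15 ± 0.22) and Celsr3 (-2.13 ± 0.50) were not above background.

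Of the Hippo kinase cascade 10 of 12 measured genes were above background (median 4.17), with the kinases Stk4 at 6.28 ± 0.21, Lats1 at 5.77 ± 0.21 and Lats2 at 5.96 ± 0.21 and the adaptor Sav1 at 4.28 ± 0.24. Taok2 (-2.06 ± 0.22) and Taok3 (-0.24 ± 0.21) were not above it, and Stk3 had no value. The coactivators Yap1 (7.26 ± 0.23) and Wwtr1, known as Taz (6.87 ± 0.21), and the DNA-binding factors Tead1 (5.69 ± 0.24) and Tead2 (3.89 ± 0.25) were among 6 of 7 above background in their list (median 3.89), and Tead4 lay at -1.47 ± 0.30. Genes known to respond to Yap were above in 5 of 7 cases (median 5.10), with Ccn2 at 4.74 ± 0.23, Ccn1 at 7.19 ± 0.21, Amotl2 at 5.10 ± 0.24 and Axl at 5.32 ± 0.21, while Ankrd1 (-2.07 ± 0.22) and Crim1 (-0.12 ± 0.27) were not. Without any suffixed probe sets 3 of these target genes were above background, beside 54.7% of all genes. Amotl2 and Ajuba then had no set, since theirs carry only the suffix _a_at, which marks probes shared by transcripts of the same gene. With those sets kept and the other suffixes left out, 5 target genes were above background, beside 55.9% of all genes.

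Genes of the secretory pathway kinase family, the class to which Fjx1 belongs, were above background in 5 of 6 measured cases (median 3.92). They included Fam20b (5.70 ± 0.21), Fam20c, the kinase of many secreted phosphoproteins (1.78 ± 0.26), Gask1b (5.40 ± 0.22) and Pkdcc (6.0 ± 0.24), and Fam20a lay at 0.00 ± 0.23. Fam198a had no value. Fat4 has been reported to bind the receptor Ret and to limit its response to Gdnf. Gdnf lay at 7.37 ± 0.20 and its co-receptor Gfra1 at 1.87 ± 0.28, while Ret, made in the ureteric bud, was not above background (-0.34 ± 0.25). Thus 2 of these 3 genes were called, and 1 with the mean over probe sets, beside 50.4% of all genes under that choice.

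**Figure D3:**
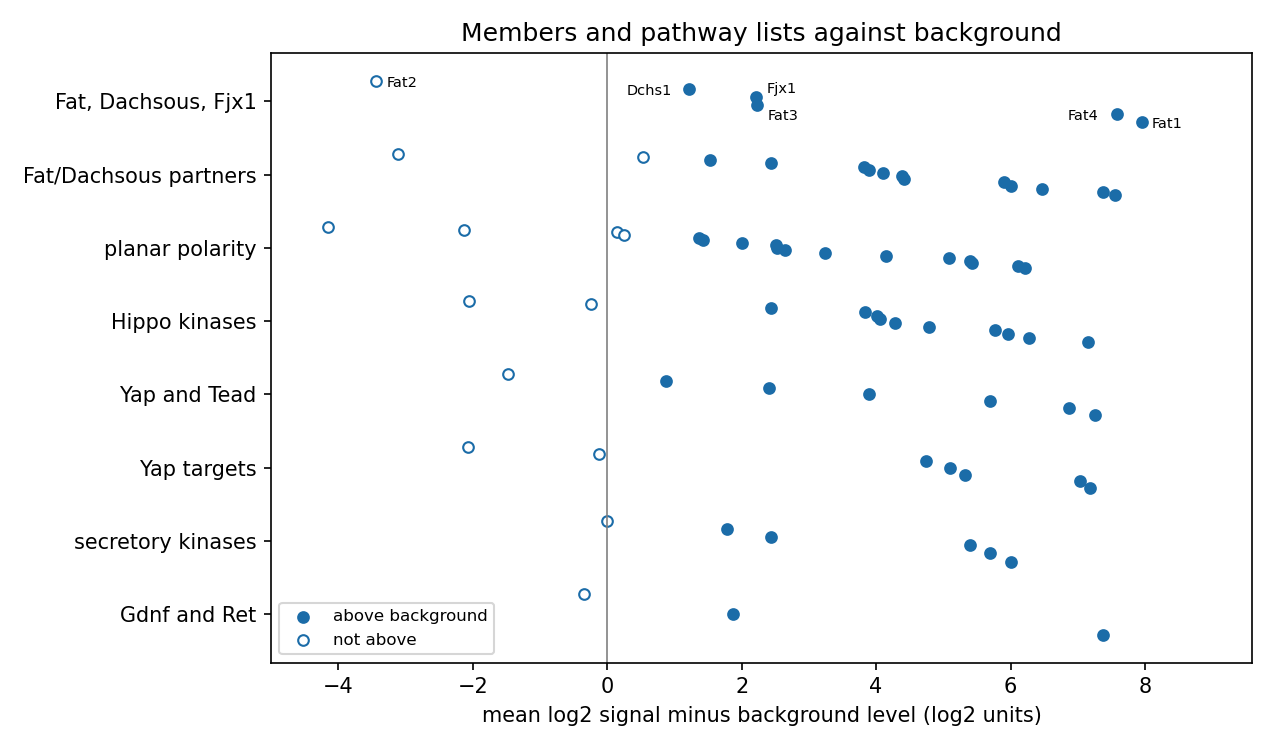
Distance of each gene from background in log2 units (horizontal axis), with the 6 measured members in the top row and 1 row for each of the 7 pathway lists, filled points above background and hollow points not above. The members spread from Fat2 at -3.44 to Fat1 at 7.95, and the pathway genes from -4.15 to 7.55.

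Among cell types that could share the sort, markers of the early nephron were above background in 3 of 6 cases. Their summed signal was 18874 to 21536 over the arrays, of which Ccnd1, a cell cycle gene, gave most. The ureteric bud had 3 of 8 (summed signal 3905 to 5076, most of it from Epcam at 4.13 ± 0.24). Endothelium had 4 of 6 (2276 to 3052), leukocytes 1 of 6 (714 to 922) and erythroid cells 1 of 5 measured (560 to 643). The sums include genes not above background and give no amount of a cell type. Over all genes 57.3% were called. In each of these lists but the erythroid, 1 of the calls rested on some but not all probe sets of the gene. The part of these cells in the signals of the Fat and Dachsous genes was not tested.

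The calls of the members were recomputed under 13 other choices of level, normalization, probe sets and arrays. Fat1 lay between 7.37 and 8.30 log2 units above background in all of them, Fat4 between 6.95 and 7.94 and Fat3 between 1.65 and 2.58. Dchs1 ranged from 0.64 to 1.57 and was called each time at the gene level. Fjx1 was called in 12 of 13, the exception being the mean over its probe sets. Those 12 all took its brightest set, so they could not address the disagreement among its 3 sets.

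**Figure D4:**
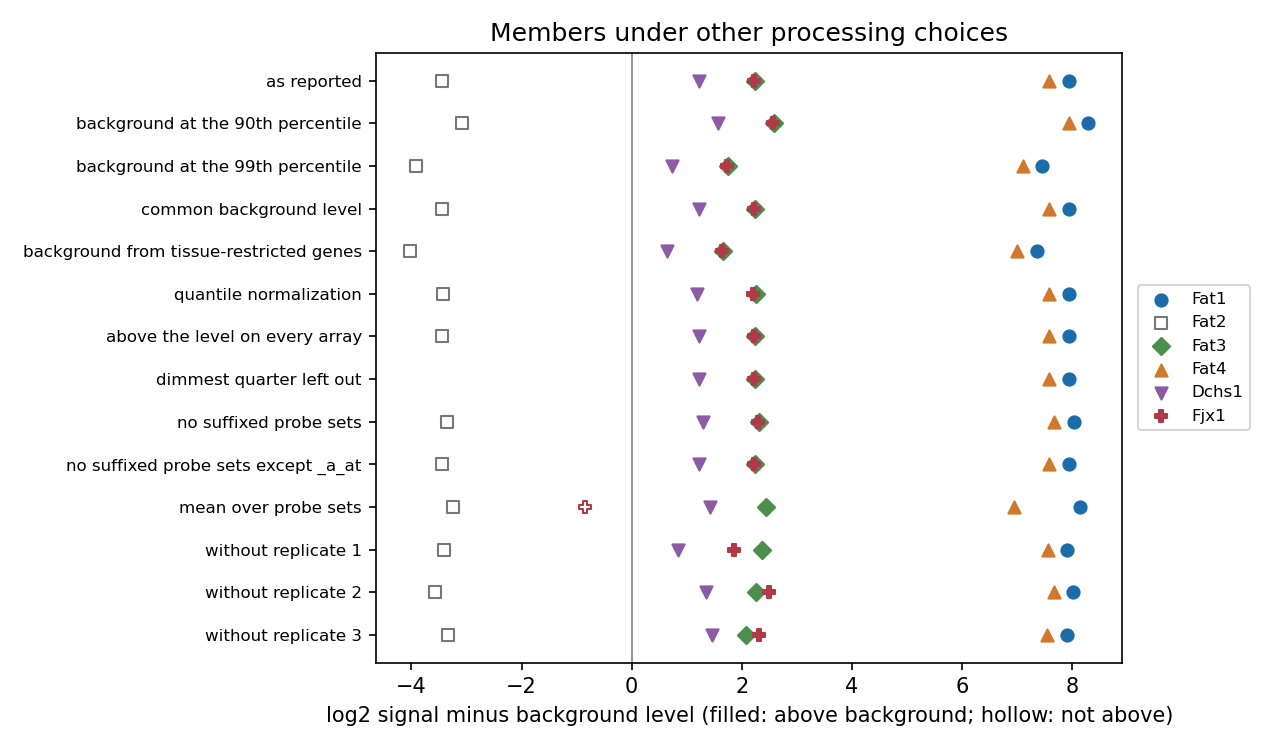
Distance from background in log2 units of the 6 measured genes as reported and under each of 13 other processing choices, 1 row per choice, filled symbols above background and hollow symbols not above. The Fjx1 symbol turns hollow and moves to -0.85 with the mean over probe sets, Fat2 is hollow wherever it was tested and drops out with the dimmest 25% of genes left out, and the other 4 genes stay filled.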

How the data were processed

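Amplified, biotin-labelled RNA (2 rounds) of 3 pools was hybridised to 3 arrays. Each deposited value is the linear intensity of a probe set on a 1-colour array. GCOS is named in the submitters' processing notes; no version, signal algorithm or scaling target is given in the sources used here. Trimmed of 2% at either end, the mean was 1500.01 on all 3 arrays, so values were scaled before deposit; scaling cancels in a distance from an array's own background. No value was 0 or below, so no pseudocount was used. Symbols came from the platform annotation, updated by Entrez ID through RefSeq (34741 of 34945 probe sets matched). Each gene took its probe set of highest mean log2 signal. Distances from background were tested with limma 3.58.1 (R 4.3.3; lmFit, eBayes, one-sided) over all 18193 genes and, separately, all 34945 probe sets, with Benjamini-Hochberg adjustment and a threshold of 0.05. The code was tested on simulated data. SEs of distances are the moderated ones of limma, not those of 3 values alone, and carry the spread of the background levels. The number of arrays limits the precision. Whether pools came from separate litters is not stated, so p-values reflect spread between these arrays alone, possibly technical. Members and lists were chosen with earlier results of these data known. Named genes are all members, the first 4 above and the first 2 not above background in each pathway list and up to 2 of each in marker lists. Dbh, Sall1, Itga8, Ccnd1, Epcam, Ajuba and Lor were named after their values were seen. No genes of like pattern are named, since 3 replicates of 1 group hold no pattern over conditions. Sequences are from RefSeq. Probe positions and protein sequences were not used here.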

Additional observations from a re-analysis of the deposited data

How the results depend on the processing

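The alternatives were a background level at the 90th or 99th percentile, a common level, a level from 48 genes restricted to other tissues, quantile normalization, a signal above the level on every array, the dimmest 25% left out, no probe sets with a suffix (_a_at, _s_at, _x_at), the mean over probe sets, and each replicate left out. Leaving out suffixed sets except those of _a_at was added after seeing the data. The count of member genes above background stayed between 4 and 5 and that of member probe sets between 5 and 6. Fjx1 turned to -0.85 with the mean over probe sets, which brings in 2 sets below background. The Yap target count fell to 3 without suffixed probe sets, which left Ajuba and Amotl2 with none, and was 5 with _a_at sets kept, and the count of Gdnf, Gfra1 and Ret to 1 with the mean over probe sets. The median SD of the members ran from 0.16 to 0.43 when 1 replicate was left out, with the lowest value without replicate 1. The Dchs1 probe set lost its call at the 99th percentile (0.73, limma adjusted p = 0.0801). Fat2 gave no value with the dimmest 25% left out. The other counts of pathway lists stayed within 1.5 times, the planar polarity count running from 9 to 14. The share of all genes called was 50.4% with the mean over probe sets and 54.7% without suffixed probe sets. Distances over all genes moved by a median of -0.58 with the level from tissue-restricted genes, -0.49 at the 99th percentile, 0.35 at the 90th and 0.20 with the mean over probe sets. No paired analysis was possible because the series holds 1 group.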
